A study of Homo sapiens with 8 samples.

Results

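The bromodomain and extra-terminal (BET) family was followed in LNCaP cells, a line established from a human prostate cancer metastasis, through the probes of BRDT, BRD2 and BRD3. Probes were taken by the RefSeq accession that the array files give them: 3 genes of 28850 tested, measured by 5 probes of 42405 non-control probes, 1 for BRDT, 1 for BRD2 and 3 for BRD3. The cells received 30 nM of a siRNA against GATA2 (siGATA2) or of a scrambled siRNA (siControl), and RNA collected 72 h later was hybridised to 1-colour Agilent arrays, 4 per group, described as biological replicates. The genes were chosen with the values of these 8 arrays known, so their differences between groups are described here and carry no test. RNA came from whole cultures of 1 cell line, in which fewer cells of a kind and less RNA per cell cannot be told apart.

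BET proteins carry a pair of bromodomains, which bind acetylated lysines on histones, and an extra-terminal domain, which recruits partner proteins. BRD2 and BRD3 are made in most tissues and help hold transcription factors and the elongation machinery at acetylated chromatin. BRDT is the testis-type member, normally restricted to male germ cells, where it takes part in the meiotic gene programme and in the compaction of acetylated chromatin in spermatids.

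The promoters of the 3 genes are shown because short motifs in them set the testis-type member beside the ubiquitous ones. They come from RefSeq (GRCh38.p14), run 5′ to 3′ on the strand of the gene, from 250 bases before to 50 bases after an annotated start, and are in lower case. Capitals mark 3 motifs, each searched on both strands with overlaps allowed. The first was the core letters GATA bound by GATA factors, the second an E-box with the letters CACGTG, which read the same on both strands, and the last a TATA box with the letters TATAAA. The E-box and TATA box were looked for after the BRDT sequence had been read. The BRDT window lies at chr1:91949151-91949450 on the plus strand, the BRD2 window at chr6:32970680-32970979 on the plus strand and the BRD3 window at chr9:134067977-134068276 on the minus strand.
BRDT: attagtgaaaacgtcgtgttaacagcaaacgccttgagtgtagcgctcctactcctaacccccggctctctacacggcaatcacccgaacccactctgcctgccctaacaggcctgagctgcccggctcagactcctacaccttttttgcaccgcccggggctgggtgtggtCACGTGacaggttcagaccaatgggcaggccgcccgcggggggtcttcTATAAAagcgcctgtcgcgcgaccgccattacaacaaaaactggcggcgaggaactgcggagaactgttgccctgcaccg
BRD2: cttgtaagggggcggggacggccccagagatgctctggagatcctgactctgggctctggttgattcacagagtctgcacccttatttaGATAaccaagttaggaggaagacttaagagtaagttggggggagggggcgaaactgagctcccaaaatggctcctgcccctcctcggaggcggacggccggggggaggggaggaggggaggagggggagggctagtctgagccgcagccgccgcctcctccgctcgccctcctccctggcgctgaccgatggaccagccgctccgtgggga
BRD3: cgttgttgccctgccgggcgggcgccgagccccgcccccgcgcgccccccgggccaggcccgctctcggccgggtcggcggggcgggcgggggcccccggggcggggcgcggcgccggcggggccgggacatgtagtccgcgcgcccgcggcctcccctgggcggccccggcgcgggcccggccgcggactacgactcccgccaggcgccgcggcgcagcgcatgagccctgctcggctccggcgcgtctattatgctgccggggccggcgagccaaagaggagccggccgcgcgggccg

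The BRDT window held 1 E-box, with its first base at position 173, and 1 TATA box, with its first base at position 221. It held no GATA core, and an overlapping second BRDT window gave the same counts. Among 34943 RefSeq promoters of the same length, 7.2% held the E-box letters, 11.6% the TATA box letters and 49.8% a GATA core. Neither the BRD3 window nor any of the 4 annotated BRD2 windows held an E-box or a TATA box. The GATA core was found in 1 BRD2 window, the one printed, at position 90, and nowhere else in the windows of the 3 genes. The BRD3 window was 85.0% G or C with 56 CpG sites, against a median of 14 sites over all promoters. The BRDT window, at 59.7% and 23 sites, lay within the range of the 4 BRD2 windows, at 50.3% to 71.7% and 16 to 34 sites. These matches describe letters in short windows only.

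Before the BET values, the labels were checked. GATA2 was measured by 1 probe and was not lower on the arrays labelled siGATA2, at 12.03 ± 0.632 (SD, n = 4) against 11.35 ± 0.273 (SD, n = 4) on the quantile-normalized log2 scale (log2 difference 0.68, standard error 0.312, adjusted p = 0.154 from limma). The difference was 0.03 when arrays were scaled to their E1A spike-in probes. This probe thus did not show the fall that the label implies, and the reason was not tested. Groups are named by their labels throughout, and every direction below runs from siControl to the arrays labelled siGATA2. The 5 prostate luminal markers KLK2, KLK3, TMPRSS2, FOLH1 and HOXB13 were well above background on all 8 arrays, and 3 of them, KLK2, KLK3 and HOXB13, were called lower on the arrays labelled siGATA2 (60%, against 14.2% of all genes). Between 24261 and 37019 probes were well above background per array, with the lowest numbers on siControl arrays 1 and 3, whose negative controls also had the widest spread (4.49 and 7.26 intensity units as a standard deviation, where the other 6 arrays had 1.78 to 2.40). No BET spot was saturated or marked as an outlier.

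BRDT was far lower on the arrays labelled siGATA2. Its processed signal, a background-corrected intensity, read 19.6, 22.5, 8.93 and 22.2 in replicates 1 to 4 of siGATA2, as labelled, against 130, 810, 516 and 857 in siControl replicates 1 to 4. After quantile normalization, the log2 values were 3.98, 4.18, 3.38 and 4.43 against 7.58, 9.36, 8.99 and 9.59. The groups did not overlap, and the highest array labelled siGATA2 lay 3.15 log2 units below the lowest siControl array, which was array 1. The means were 3.99 ± 0.449 (SD, n = 4) and 8.88 ± 0.903 (SD, n = 4), a log2 difference of -4.89, or 29.6-fold on this scale. That size is uncertain, because the lower group lies near background, and normexp correction gave 5.92-fold. The probe (A_23_P136589, NM_207189) was well above background on all 4 siControl arrays and on 3 of the 4 arrays labelled siGATA2, array 3 being the exception. Most probes passed this flag on the arrays labelled siGATA2, at 34395 to 37019 of 42405, so it does not tell residual BRDT transcript from non-specific signal.

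In size, the BRDT difference ranked 3 of 28850 genes ordered from the most negative, and 51 of 32511 after normexp correction. Among the 16638 genes that had a symbol and cleared background throughout 1 group or both, KLHL1 and TRPM8 alone had a more negative difference. The difference was -5.75 within the slide row that held 3 arrays labelled siGATA2 and 1 siControl array, and -4.21 within the row that held 1 and 3. Without siControl arrays 1 and 3 it was -5.48. The normexp background correction gave -2.57, since its offset of 50 compresses dim probes by construction, and the groups stayed apart there too.

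**Figure D1:**
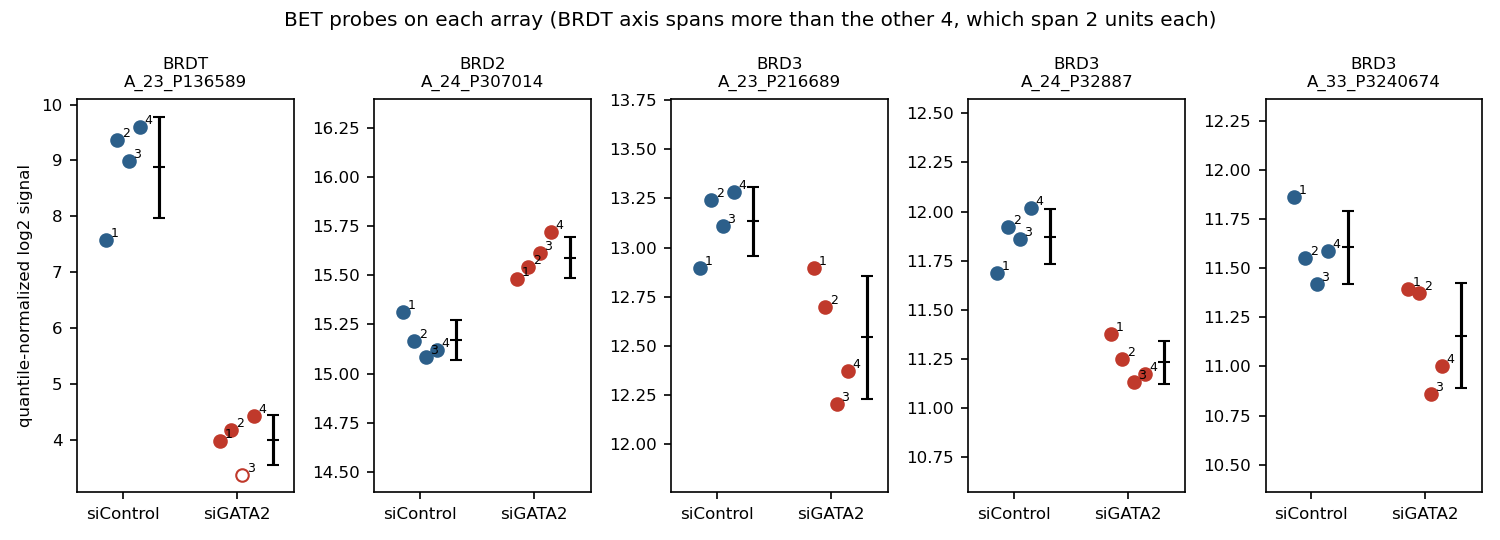
Quantile-normalized log2 signal of the 5 BET probes on each array, by label, with replicate numbers beside the points and the mean ± SD (n = 4) at the right of each group. The open point is the array on which the probe was not well above background; the BRDT values of the arrays labelled siGATA2 lie between 3.38 and 4.43, all below the siControl values of 7.58 to 9.59, while the other 4 probes differ by less than 1 log2 unit in their means.

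BRD2, which recruits transcription factors and chromatin complexes to hyperacetylated histones, moved little. Its probe (A_24_P307014, NM_005104) read 15.48, 15.54, 15.61 and 15.72 in replicates 1 to 4 labelled siGATA2 against 15.31, 15.17, 15.09 and 15.12 in siControl replicates 1 to 4. All values of the first group lay above those of the second, with a gap of 0.17. The means were 15.59 ± 0.103 (SD, n = 4) and 15.17 ± 0.101 (SD, n = 4), a log2 difference of 0.42 or 1.34-fold, and its duplicate spots on an array differed by 0.00332 to 0.146. Within the slide rows the difference was 0.43 and 0.53. The direction depended on the scaling: the difference was 0.26 with overlapping groups when arrays were scaled to their 75th percentile, and it turned to -0.34, again with overlap, when they were scaled to their 7 E1A spike-in probes. That turn rested on siControl array 1, whose spike-in signal was the dimmest (11.13 against 13.45 to 13.83), and without this array the spike-scaled difference was 0.09. That spike-in scaling moved the median of all genes from 0.09 to -0.43. Relative to the median of all genes, BRD2 stood at 0.33 after quantile normalization and at 0.08 under both the percentile and the spike-in scaling. Each of the latter shifts a whole array by a constant, so their values relative to the median are the same by construction.

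BRD3, which binds acetylated GATA1 in blood cells as well as histones, was lower by a similar small amount on each of its 3 probes. The brightest probe (A_23_P216689, NM_007371) read 12.90, 12.70, 12.20 and 12.37 in replicates 1 to 4 labelled siGATA2 against 12.90, 13.24, 13.11 and 13.28 in siControl replicates 1 to 4. Its means of 12.54 ± 0.313 (SD, n = 4) and 13.13 ± 0.174 (SD, n = 4) differed by -0.59, or 1.51-fold, and the groups overlapped at their edges, at array 1 of each. A second probe (A_24_P32887) read 11.38, 11.25, 11.13 and 11.17 against 11.69, 11.92, 11.86 and 12.02, a difference of -0.64 with a gap of 0.31 between the groups. The third probe (A_33_P3240674) read 11.39, 11.37, 10.86 and 11.00 against 11.86, 11.55, 11.42 and 11.59, a difference of -0.45 with a gap of 0.0271. Within the slide rows the differences of the 3 probes ran from -0.76 to -0.38. Agreement in sign across the 3 probes is agreement within 1 transcript and the same 8 RNA samples. Relative to the median of all genes, the brightest probe stood at -0.68 after quantile normalization and -0.83 under the percentile and spike-in scalings, which share this value by construction.

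Of the 5 BET probes, 3 were lower with no overlap between the groups, 1 was higher with no overlap and 1 overlapped. Over all 28850 genes, 16.4% were lower and 16.1% higher with no overlap; the BET probes were picked on this contrast, so nothing is read from their count. What separated BRDT from the ubiquitous members was size. On the log2 processed signal before normalization the BRDT groups stayed apart, at 3.16 to 4.49 against 7.02 to 9.74. The other 4 probes overlapped there. For the 3 BRD3 probes only siControl array 1, whose unscaled 75th percentile was the lowest (9.87), made the overlap. Probe A_24_P32887 spanned 11.20 to 11.26 under the siGATA2 label, while siControl replicates 1 to 4 gave 10.93, 12.35, 11.98 and 12.25. BRD2 overlapped without that array too, with siControl array 2 (15.63) inside the siGATA2 span of 15.15 to 15.85. In all 6 treatments of the signal compared (none, quantile, 75th percentile, spike-in, normexp with quantile, and the deposited log2 values), the BRDT groups were apart. The BRD2 groups were apart in 3 (quantile, normexp with quantile, and deposited), all of which rest on quantile normalization. Those of the brightest BRD3 probe were apart in 2, the 75th percentile and spike-in scalings. Those of the other 2 BRD3 probes were apart in 5, every treatment but the unscaled signal. The treatments re-express the same arrays, so these counts are not independent of each other or of the choice of genes. The share of all genes with no overlap was counted after quantile normalization only, so how common it is under the other treatments was not tested.

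**Figure D2:**
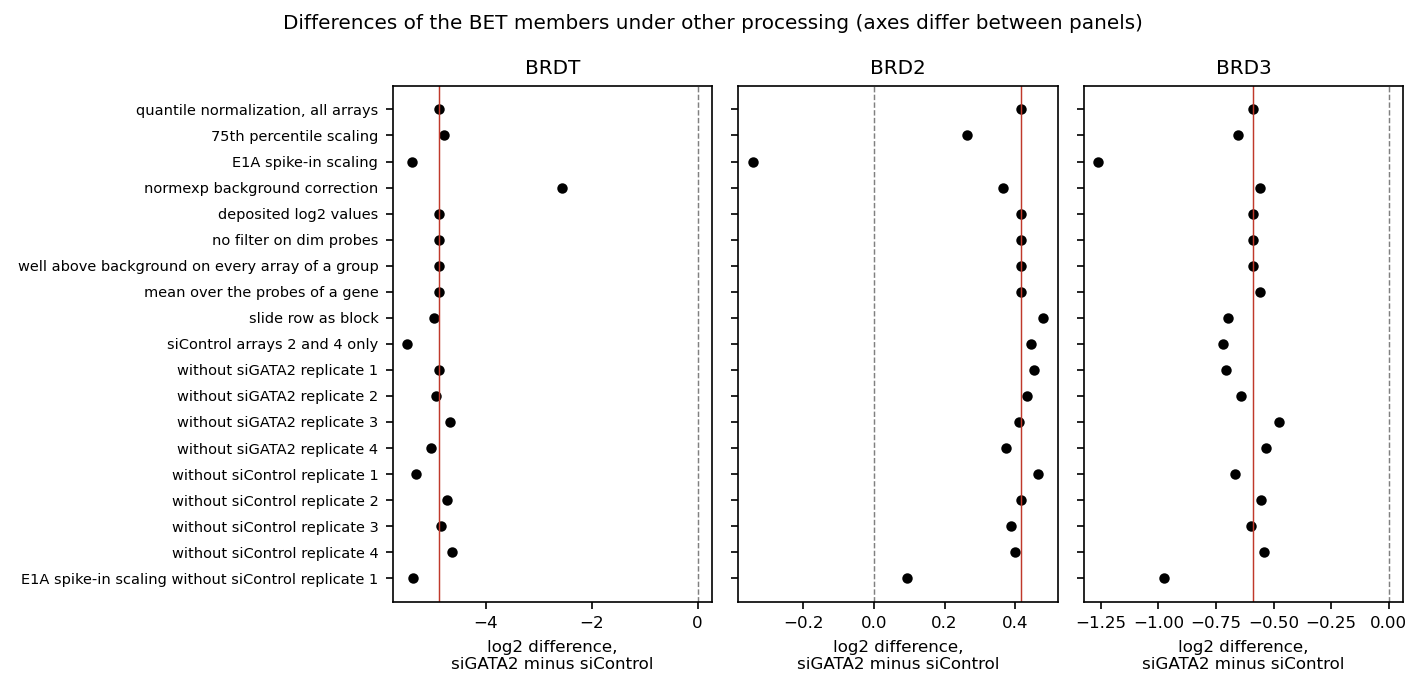
Log2 differences (arrays labelled siGATA2 minus siControl) of BRDT, BRD2 and the brightest BRD3 probe under quantile normalization (red line) and 18 other settings, with a separate horizontal axis per gene and 0 as a dashed line. BRDT ranges from -5.48 to -2.57 and BRD3 from -1.26 to -0.48, while BRD2 ranges from -0.34 to 0.48 and lies below 0 under the E1A spike-in scaling alone, where it is 0.09 once siControl array 1 is left out.

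The genes of the remaining bromodomain proteins, many of which read acetyl-lysine in remodelling, acetyltransferase and transcription factor complexes, were split in direction. Of 36 tested genes, limma called 5 lower and 9 higher (13.9% and 25%), where called means an adjusted p under 0.05. Of all 28850 genes, 14.2% were called lower and 12.3% higher. The median log2 difference of the 36 genes was 0.21, against 0.09 over all genes. Only 17858 of the 28850 had a symbol, as every listed gene does, and 34 of the 36 were well above background on all 8 arrays. The shares over all genes, here and for the other lists, thus come from a set unlike the listed genes. ATAD2, an E2F-regulated AAA ATPase with a bromodomain, fell by 1.56 (standard error 0.118, adjusted p = 7.18e-05), and SMARCA4, the ATPase of the BAF remodeller, fell by 1.23 (standard error 0.164, adjusted p = 0.00103). PBRM1, a subunit of the PBAF form of that remodeller, fell by 0.90 on its brightest probe and its second probe stood at -0.94. BAZ2B rose by 1.37, the acetyltransferase KAT2B rose by 1.25 and BAZ2A, a subunit of a nucleolar remodelling complex, rose by 1.16. The acetyltransferases that write many of the marks read by BET proteins were not called, with CREBBP at -0.02 and EP300 at 0.21, and the sign of EP300 turned under the spike-in scaling. TAF1L, a testis-type copy of TAF1, stood at 0.83 (standard error 0.243, adjusted p = 0.0385), a call lost under 13 of 22 alternatives, and its probe may also take up TAF1 transcripts. No tested bromodomain gene had a difference as negative as that of BRDT.

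**Figure D3:**
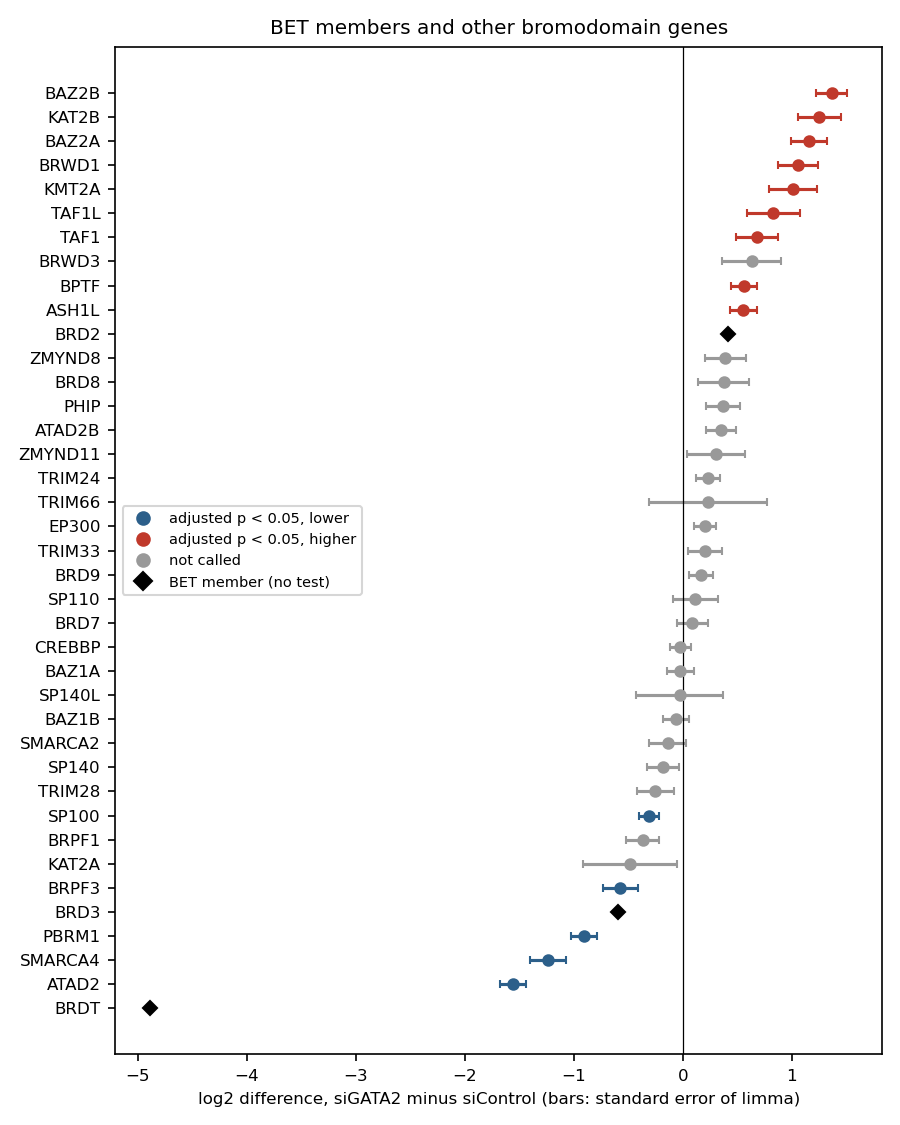
Log2 difference (arrays labelled siGATA2 minus siControl) of the 36 tested bromodomain genes with the standard error of limma, and of BRDT, BRD2 and the brightest BRD3 probe as diamonds without a test. BRDT at -4.89 lies beyond ATAD2 at -1.56, while BRD2 at 0.42 and BRD3 at -0.59 lie among the other genes.

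Because BRDT is a germ cell gene, the other testis germ cell genes were set beside it. Of 42 listed genes, 38 had a probe and 27 passed the filter on dim probes. Of these, 3 were called lower and 3 higher (11.1% each, against 14.2% and 12.3% of all genes), with a median log2 difference of 0.03. ACR, the acrosomal protease acrosin, fell by 1.20 (standard error 0.167, adjusted p = 0.00132), though its second probe stood at 0.06. PAGE1, a cancer-testis antigen, fell by 1.05, and ACRV1, an acrosomal vesicle protein, fell by 0.59, a call lost under 9 of 22 alternatives, with 2 siControl arrays well above background. H1-6, the testis-specific linker histone, rose by 3.75 (standard error 0.381, adjusted p = 0.000265), or 1.82 with normexp correction, and cleared background on just 2 siControl arrays. TEX14, which forms the bridges between germ cells, rose by 2.79 (adjusted p = 0.00172), or 0.79 with normexp correction, and was well above background on 1 siControl array, and AKAP4, of the sperm tail, rose by 0.45, a call lost under 15 of 22 alternatives. TAF7L, a germ cell TFIID subunit, stood at -0.64 and was not called (adjusted p = 0.0515).

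The most negative difference among the 27 tested germ cell genes was -1.20, but only 4 of them had a siControl mean as high as that of BRDT, so most had little room above background for a difference of its size. The defining germ cell markers gave no call: of 6, DDX4 and DAZL fell below the filter and SYCP3, TNP1, PRM1 and PRM2 had differences of -0.39, 0.14, -0.19 and -0.47. Their summed signal, from the normalized values put back on the linear scale, was 192 to 358 on the arrays labelled siGATA2 and 237 to 541 on the siControl arrays. Of the 27 genes, 23 were well above background on every array labelled siGATA2 and 7 on every siControl array, alongside the wider negative control spread of siControl arrays 1 and 3, and the part of that spread in the dim germ cell signals was not tested.

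**Figure D4:**
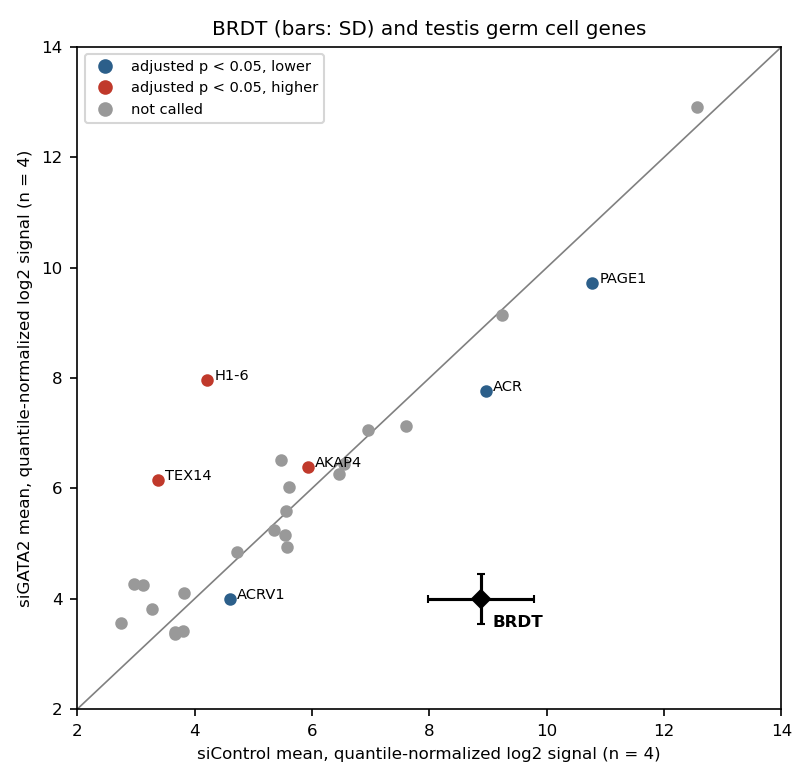
Mean quantile-normalized log2 signal on the siControl arrays (horizontal) and on the arrays labelled siGATA2 (vertical), n = 4 each, for 27 tested testis germ cell genes and BRDT (diamond, bars are the SD); the grey line marks equal means. BRDT, at 8.88 and 3.99, lies far below the line, H1-6 and TEX14 lie above it, and most other genes lie near it.

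BET proteins act partly by bringing P-TEFb, the kinase that releases paused RNA polymerase, to chromatin. Of 30 tested genes for P-TEFb, elongation and BET partner proteins, 5 were lower and 7 higher (16.7% and 23.3%, against 14.2% and 12.3% of all genes), with a median of 0.07. The catalytic subunit CDK9 rose by 0.66 (standard error 0.152, adjusted p = 0.0146), a call lost under 4 of 22 alternatives. Its cyclins rose too, CCNT2 by 0.77 (lost under 8 of 22) and CCNT1 by 0.46 (lost under 7 of 22). AFF4, the scaffold of the super elongation complex, rose by 0.80 (lost under 3 of 22), with 0.12 as its lowest value over the alternatives. CDK9 stood at 0.03 under the spike-in scaling, and CCNT1 turned to -0.17 there, apart from its 7 losses. HEXIM1, the inhibitor that holds P-TEFb inactive, stood at 0.03 (standard error 0.295, adjusted p = 0.956). ATAD5, which unloads the replication clamp and binds BET proteins, fell by 1.84 (adjusted p = 6.44e-05), the elongation factor ELL3 fell by 1.08 and NELFB, a subunit of the pausing factor NELF, fell by 0.81. BICRA, a BAF subunit and BET partner, rose by 0.88 on its brightest probe, with its second at -0.04.

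The histone acetyltransferase and deacetylase families were taken whole, and their members need not all act on histones. Of 26 tested genes, 2 were lower and 6 higher (7.69% and 23.1%, against 14.2% and 12.3% of all genes), with a median of 0.24. The deacetylase HDAC3 fell by 0.46 and HDAC2 fell by 0.53, a call lost under 13 of 22 alternatives. NCOA3, a nuclear receptor coactivator with acetyltransferase activity, rose by 1.60 (standard error 0.107, adjusted p = 4.16e-05). The sirtuins SIRT2 and SIRT4 rose by 1.21 and 1.06.

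Genes known to respond to BET inhibitor drugs were set beside the family, without reading them as a measure of BET activity. Of 10 tested, 5 were lower and 2 higher (50% and 20%, against 14.2% and 12.3% of all genes), with a median of -0.25. Among genes that inhibitors lower in many cell types, MYC fell by 2.75 (standard error 0.111, adjusted p = 1.32e-05). CDK6 fell by 1.43 (adjusted p = 0.0463, lost under 12 of 22 alternatives). BCL2 fell by 0.53 on its brightest probe, with its second at -1.81. In the same class, IL7R rose by 1.65 (0.59 with normexp correction, lost under 8 of 22 alternatives, well above background on 1 siControl array). FOSL1 at 0.69 was not called. Among genes that inhibitors raise, H2BC21 rose by 2.98, with its second probe at 0.62, but SERPINI1 fell by 2.89 (standard error 0.108, adjusted p = 1.17e-05) and ZCCHC24 fell by 0.68, and neither HEXIM1 nor H2BC12, at 0.24, was called. The list thus held members on either side of 0 within both classes.

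The genes whose profile over the 8 arrays lay closest to each BET member were found by the root mean square difference of log2 values centred on their own mean. Candidates had a symbol and cleared background throughout 1 group or both. For BRDT these were UGT2B15, an enzyme that glucuronidates androgens (0.407), KLHL1, an actin-binding kelch protein (0.527), TRPM8, a cold-sensing cation channel (0.566), GUCY1A2, a subunit of soluble guanylate cyclase (0.575), and the pseudogene GRM5P1 (0.621). Their differences between groups ran from -5.35 for KLHL1 to -3.72 for GRM5P1. GUCY1A2 read 2.40 to 2.76 on the arrays labelled siGATA2, below the BRDT values there. The size of its difference is thus uncertain, as it is for BRDT. The closest to BRD2 were IFI27L1 (0.0314), MRPL42P5, UQCR11, WIPF2 and ONECUT2, and the closest to BRD3 were TACC1 (0.0446), COL20A1, ATG16L1, CLN3 and ZCCHC24 (0.0848). The wider distances around BRDT go with its larger spread, and with 8 arrays in 2 groups a close profile reflects mainly a like difference between the groups.

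**Figure D5:**
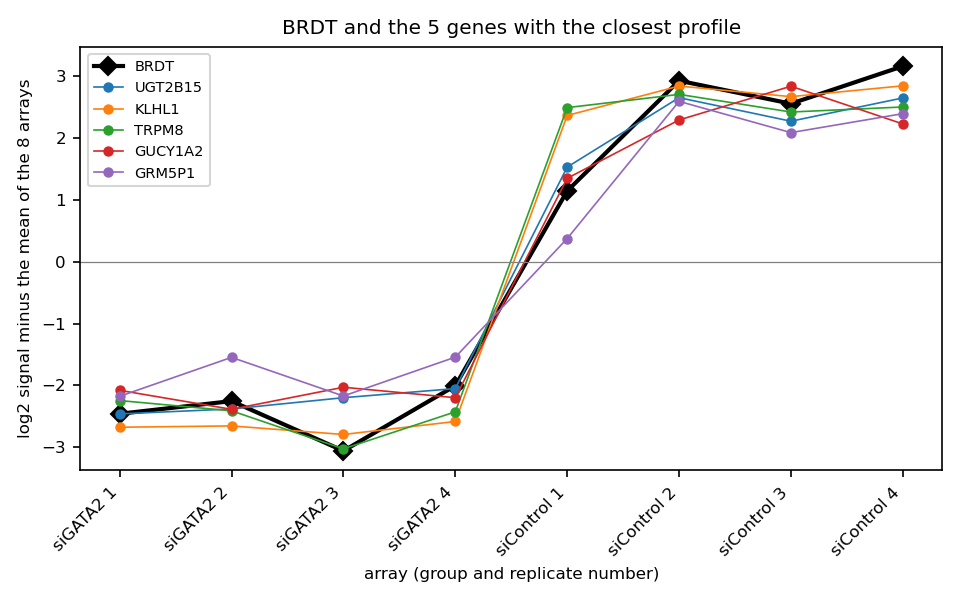
Log2 signal of BRDT and the 5 genes closest to it, minus each gene's mean over the 8 arrays, by array. All 6 genes are below their mean on the 4 arrays labelled siGATA2 and above it on the 4 siControl arrays, and siControl array 1 is the lowest siControl array for BRDT, at 7.58 before centring.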

How the data were processed

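The authors deposited, per array, the intensity values of Agilent Feature Extraction (version 11.0.1.1 in the submitters' processing notes) (its processed signal and spot flags were taken) and, for the series, log2 values that the authors made by quantile normalization per their methods. Here the deposited intensity was put on the log2 scale, unflagged spots of 1 probe were averaged and the arrays were quantile-normalized with limma 3.58.1 in R 4.3.3. A RefSeq table gave symbols to 26364 of the 27902 probes listed under RefSeq accessions (GRCh38.p14, names only). The other annotated probes were kept under the array's own identifier and counted as genes. Left out were 1914 unannotated probes and those averaging below 3 in log2; each gene was read from its brightest probe. Groups came from the sample labels. Differences of genes outside the BET family were tested with lmFit and eBayes and adjusted by Benjamini-Hochberg over 28850 genes, with a threshold of 0.05. The limma script was tested on simulated data.

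Arrays have no read depth, and their number limits the precision. Members, gene lists and the naming rule were chosen with earlier results of these data known. The rule named every BET probe, GATA2, the 3 largest falls and rises among called genes of each list, CDK9, CCNT1, HEXIM1, ATAD2, CREBBP, EP300, TAF1L, TAF7L and the 5 closest genes per BET member. One of the 4 BET genes and 1 luminal marker are not reported here. Marker lists not named above gave no call for the 2 tested basal genes (KRT14 and TP63) or the 2 tested fibroblast genes (DCN and COL1A1). KRT5 and LUM fell below the filter on dim probes. Of 3 leukocyte genes, 1 was called higher (33.3%, against 12.3% of all genes), PTPRC, by 0.87. Other PTPRC probes stood at 0.59, and at -0.38 and -0.65 where no array cleared background. Alternatives covered scaling, background correction, filters, probe summaries, blocks, array weights, thresholds and left-out arrays. Samples of like replicate number did not deviate together in every pair (correlations of deviations 0.54, -0.31, 0.17 and 0.22). The sample titles carry the letters A, B, E and F for siGATA2 and B, D, F and G for siControl. Samples of like number thus share no letter, and pairing by letter was not tried.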

Additional observations from a re-analysis of the deposited data

Results flagged for a closer look

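Among 112 groups of 4 arrays examined, over the BET probes and the named genes, 6 held an array far from the other 3 by Dixon's ratio, and none of these was a BET probe; chance flags about 1 in 20 groups. On siControl array 1, HEXIM1 was low at 8.48 against 9.42 to 9.54 (ratio 0.881), ELL3 was low at 11.55 against 11.85 to 11.91 (0.835), PAGE1 was low at 10.56 against 10.83 to 10.87 (0.873), and ACR was high at 9.27 against 8.85 to 8.86 (0.987). On array 3 labelled siGATA2, SERPINI1 was low at 6.46 against 6.65 to 6.67 (0.894) and IL7R was low at 4.41 against 5.98 to 6.20 (0.879). The array with 4 of the 6, siControl 1, also had the dimmest E1A spike-in signal, at a mean of 11.13, and its part in these values was not tested.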

How the results depend on the processing

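BRDT kept its sign under all 18 alternatives, at -2.57 with normexp correction, and BRD3 kept its sign too, at -1.26, -1.28 and -1.08 on its 3 probes under the E1A spike-in scaling. Not all of these alternatives could move a difference. The 2 changes of filter left every BET difference as it was, and averaging probes could not alter BRDT or BRD2. The deposited values were quantile-normalized as well, with BRDT again at -4.89. BRD2 stood at 0.26 under the 75th percentile scaling and -0.34 under the spike-in scaling. Without siControl array 1, an alternative chosen after the data were seen, the spike-in scaling gave 0.093 for BRD2 and -0.97, -0.96 and -0.62 for the BRD3 probes. In the counts below, lower comes first. Under the spike-in scaling they were 2 and 0 for bromodomain genes, 2 and 0 for elongation genes, 0 and 0 for acetylation enzymes, 1 lower for germ cell genes, 3 and 1 for inhibitor readouts and 1899 and 141 for all genes. With array weights they were 8 and 17 for bromodomain genes, 9 lower for elongation genes, 13 higher for acetylation enzymes, 7 lower for germ cell genes and 7537 and 8042 for all genes. With slide row as a block, 3 bromodomain genes were lower, 3 and 4 elongation genes were called, 0 acetylation enzymes were lower and 2184 of all genes were higher. With the replicate block, which pairs samples of like number, 4 elongation genes were higher, and 0 acetylation enzymes and 3 inhibitor readouts were lower. Averaging probes left 3 bromodomain genes lower. With siControl arrays 2 and 4 only, 1 acetylation enzyme was lower and 1 readout higher. Asking for a fold of 2 as well gave 2 and 5 bromodomain, 2 and 0 elongation and 0 and 3 acetylation genes, 3 readouts lower and 2056 and 1304 of all genes; with the methods' t-test, a pairing chosen after the data were seen, it gave the same list counts but 2 readouts lower, and 1942 and 1111 of all genes. Leaving out 1 array at a time gave 3 to 6 bromodomain, 3 to 7 elongation and 1 to 2 acetylation genes lower, and 3 to 5 readouts lower and 1 to 2 higher. The causes were not tested.

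Of 31 named genes called, 10 kept their call under every alternative and 1, CCNT1, changed sign (-0.17, spike-in scaling). Asking for a fold of 2 as well, with limma or the methods' t-test, removes by construction every call with a log2 difference below 1 in size. With limma it removed the calls of 12 named genes. Such losses, which also enter the counts of lost calls given for single genes above, were fixed in advance and do not measure robustness. Among genes not called, HEXIM1 turned to -0.52 (spike-in scaling), -0.45 (array weights), -0.25 (siControl arrays 2 and 4) and -0.22 to 0.15 when 1 array was left out, EP300 to -0.39 (spike-in scaling) and CREBBP to 0.029 (slide row), with a range of -0.058 to 0.021 when 1 array was left out. With array weights the GATA2 probe passed the threshold, at 1.1 higher. Dim signal limits BRDT on the arrays labelled siGATA2.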
